A study of Rattus norvegicus with 6 samples.

Results

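The neurotrophins and their receptors were followed in the substantia nigra pars compacta, the midbrain region whose dopamine neurons project to the striatum, of adult rats exposed to rotenone, an inhibitor of respiratory complex I. The genes were Bdnf and Ntf3, which encode neurotrophins, Ntrk2 and Ntrk3, which encode the receptors TrkB and TrkC, and Ngfr, which encodes the p75 neurotrophin receptor. Their probes were taken by RefSeq accession, without version, from the scanner file of each array. Of the 5 genes, 4 had a probe, 1 each, among 33849 probes, of which 4675 could be named, for 4013 genes. No probe carried a Bdnf accession, so Bdnf was not analysed here.

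All 6 rats were male Sprague Dawley rats aged 5 months. In the rotenone group, 3 rats (16, 13 and 9) received rotenone at 0.5 mg/kg per day for 28 days from osmotic pumps placed under the skin. In the solvent group, 3 rats (11, 7 and 1) received the vehicle of dimethylsulfoxide, polyethylene glycol and a Pluronic surfactant in the same way. RNA of the laser-captured region was amplified and hybridised to 1 one-colour array per rat, and the comparison asked whether the pesticide altered gene expression there.

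Neurotrophins are secreted proteins, made as larger precursors, that keep neurons alive and shape their axons and synapses. Each mature neurotrophin prefers 1 Trk receptor tyrosine kinase: BDNF binds TrkB and neurotrophin 3 binds TrkC, and all of them bind the p75 receptor. Activated Trk receptors signal through the RAS-MAPK, PI3K-AKT and phospholipase C-gamma routes, while p75 acts through NF-kappaB, JNK and small GTPases. In the nigra both BDNF and neurotrophin 3 are known to be made by dopamine neurons, and TrkB and TrkC are found on them. Both Trk genes also give truncated receptors without a kinase, which for TrkB are abundant in astrocytes.

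The Ntrk3 probe gave a clear signal in every rat, the Ntrk2 probe a weak one in 5 of 6, the Ntf3 probe a weak one in 2 solvent rats, and the Ngfr probe none above background. Neither Trk receptor gene differed between rotenone and solvent rats beyond the spread among rats. The Ntrk3 probe averaged 1.11-fold the solvent level in rotenone rats, with a 95% interval from 0.841-fold to 1.46-fold, and the Ntrk2 probe 0.911-fold, with an interval from 0.681-fold to 1.22-fold. These folds are on a log2 scale after an offset of 50 was added to each intensity, which draws the fold of a weak probe towards 1.

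The array of rotenone rat 16 stood apart. Across tested probes it correlated with the other arrays at 0.931 on average, against 0.956 to 0.964 for each of those, and 44.2% of its probes were above background, against 48.6% to 51.5%. Above background means here that the scanner did not mark the spot as near background or masked. The median net signal of rat 16, spot mean minus local background, was 11.7, against 13.9 to 16.6 on the other arrays. Markers of the region were bright: the dopamine synthesis gene Th averaged 12.85 ± 0.27 in rotenone rats and 12.74 ± 0.22 in solvent rats (normalized log2 intensity, SD, n = 3 each), and the dopamine transporter gene Slc6a3 averaged 12.53 ± 0.07 in rotenone rats and 12.73 ± 0.11 in solvent rats. Slc6a3 was lower in each rotenone rat than in any solvent rat, as were 4.89% of all probes. Of the 10 dopamine neuron markers with a probe, 7 were above background on all 6 arrays. The region was not free of other cells. On all 6 arrays, 7 of the 9 astrocyte markers and 6 of the 7 oligodendrocyte markers with a probe were above background.

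The Ntf3 probe (GE19696) was above background in solvent rats 11 and 7 and in no rotenone rat. Neurotrophin 3 is the preferred ligand of TrkC. Its net signal was 4.29, 5.86 and 10.2 in rotenone rats 16, 13 and 9, against 27.2, 18.1 and 4.29 in solvent rats 11, 7 and 1. The negative control spots of the arrays, 256 on each, had 95th percentiles of net signal between 10.8 and 12.2, so that solvent rats 11 and 7 lay above that range and the other 4 rats below it. The groups overlapped, because solvent rat 1 lay as low as rotenone rat 16.

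On the log2 scale the Ntf3 probe averaged 5.97 ± 0.07 in rotenone rats and 6.14 ± 0.23 in solvent rats (SD, n = 3 each). With each rotenone rat set at or above the lowest signal that was above background on its array, the solvent mean was 1.09-fold higher. Solvent rat 1 was kept as measured, at 5.90, though the lowest such signal on its array was 5.97, so this is no strict lower bound. That value concerns the means only and leaves out the spread among rats. Since the probe was above background on fewer than 3 arrays, it was not part of the test across probes, and an exact permutation test of its log2 values gave p = 0.4, where 3 rats against 3 cannot go below 0.1. Without solvent rat 11 the solvent mean was 1.01-fold higher on that footing.

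**Figure D1:**
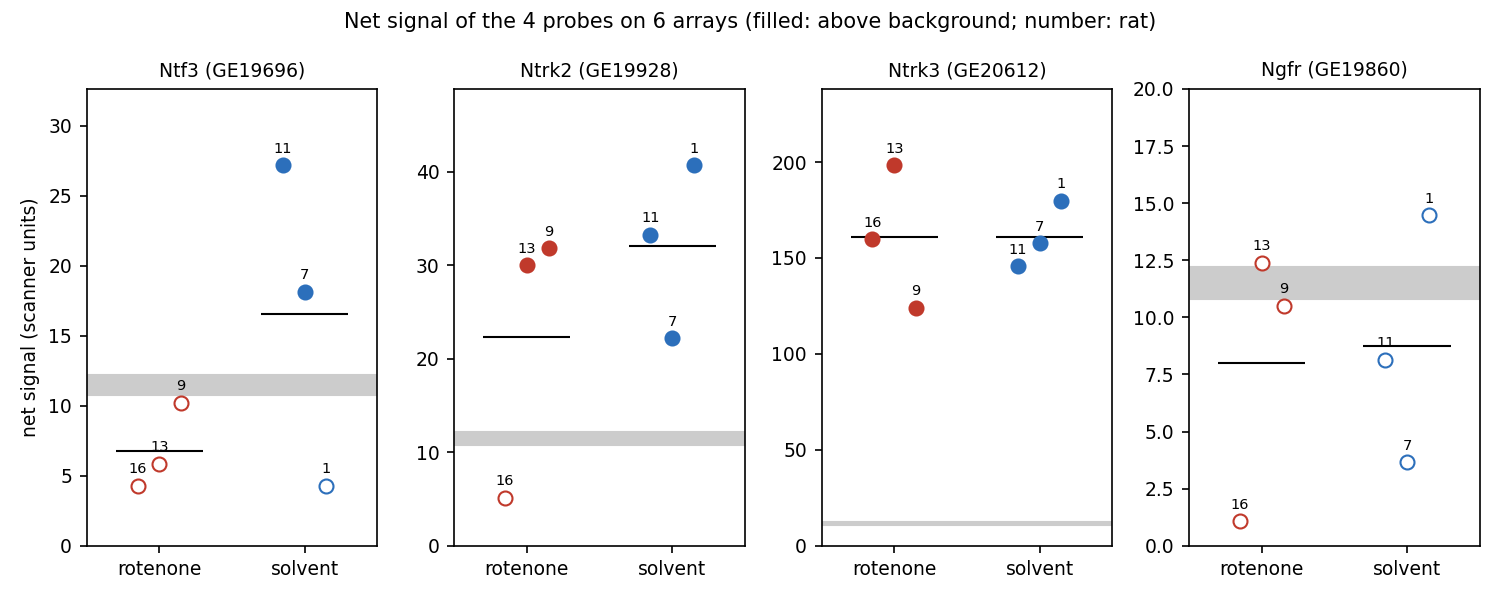
Net signal (vertical axis, spot mean minus local background in scanner units, a separate scale for each gene) of the Ntf3, Ntrk2, Ntrk3 and Ngfr probes, with rotenone rats at the left and solvent rats at the right of each panel. Each point is 1 rat, numbered, filled where above background, the black line is the group mean, and the grey band spans the 95th percentiles of the negative control spots (10.8 to 12.2). The Ntrk3 points lie far above the band, Ntrk2 lies below it only in rotenone rat 16, and the groups overlap in every panel.

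The Ntrk2 probe (GE19928) lies in the transcript of TrkB, the BDNF receptor; which of the full-length and truncated forms it reads cannot be told from the files used here. RefSeq lists 14 transcripts of the gene. Its net signal was 5.14, 30.0 and 31.8 in rotenone rats 16, 13 and 9, against 33.3, 22.2 and 40.7 in solvent rats 11, 7 and 1. Rotenone rat 16 was the lowest and the one rat below background, and the other 2 rotenone rats lay within the range of the solvent rats.

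Its normalized log2 intensities were 5.94, 6.40 and 6.47 in rotenone rats 16, 13 and 9, against 6.46, 6.24 and 6.51 in solvent rats 11, 7 and 1. The mean was 6.27 ± 0.28 in rotenone rats and 6.40 ± 0.15 in solvent rats (SD, n = 3 each), a difference of -0.13 ± 0.19 (SE) with a 95% interval from -0.55 to 0.28. The adjusted p was 0.924 in limma's moderated test with Benjamini-Hochberg adjustment over 16708 probes, and the exact permutation p was 0.6. Without rotenone rat 16 the difference was 0.03, so that its sign rested on that array.

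The Ntrk3 probe (GE20612) was above background on all 6 arrays, as were 36.8% of all probes. TrkC is the receptor of neurotrophin 3. Its net signal was 160, 198 and 124 in rotenone rats 16, 13 and 9, against 146, 158 and 180 in solvent rats 11, 7 and 1. The highest and the lowest rat were both rotenone rats, and the solvent rats lay between them. Before any scaling between arrays the group means were the same to 3 digits, 161 ± 37.2 in rotenone rats and 161 ± 17.4 in solvent rats (SD, n = 3 each).

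After scaling, the rotenone mean of Ntrk3 was the higher. The authors' scaled intensity, the net signal divided by about the median of its array, averaged 12.0 ± 2.67 in rotenone rats and 10.2 ± 0.521 in solvent rats. The normalized log2 intensities were 8.01, 7.95 and 7.52 in rotenone rats 16, 13 and 9, against 7.63, 7.64 and 7.76 in solvent rats 11, 7 and 1. Rats 16 and 13 lay above the solvent rats and rat 9 below them. The difference was 0.15 ± 0.18 (SE), with a 95% interval from -0.25 to 0.55, an adjusted p of 0.916 in limma and an exact permutation p of 0.4. It was 0.03 when the medians of the arrays were equalised in place of quantile normalization, 0.06 when rotenone rat 16 was left out and 0.30 when rotenone rat 9 was. The scanner marked the Ntrk3 spot as irregular in shape on all 6 arrays, a mark carried by 29.4% to 36.3% of probes per array. With the median in place of the mean of the spot's pixels, the difference was 0.09.

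**Figure D2:**
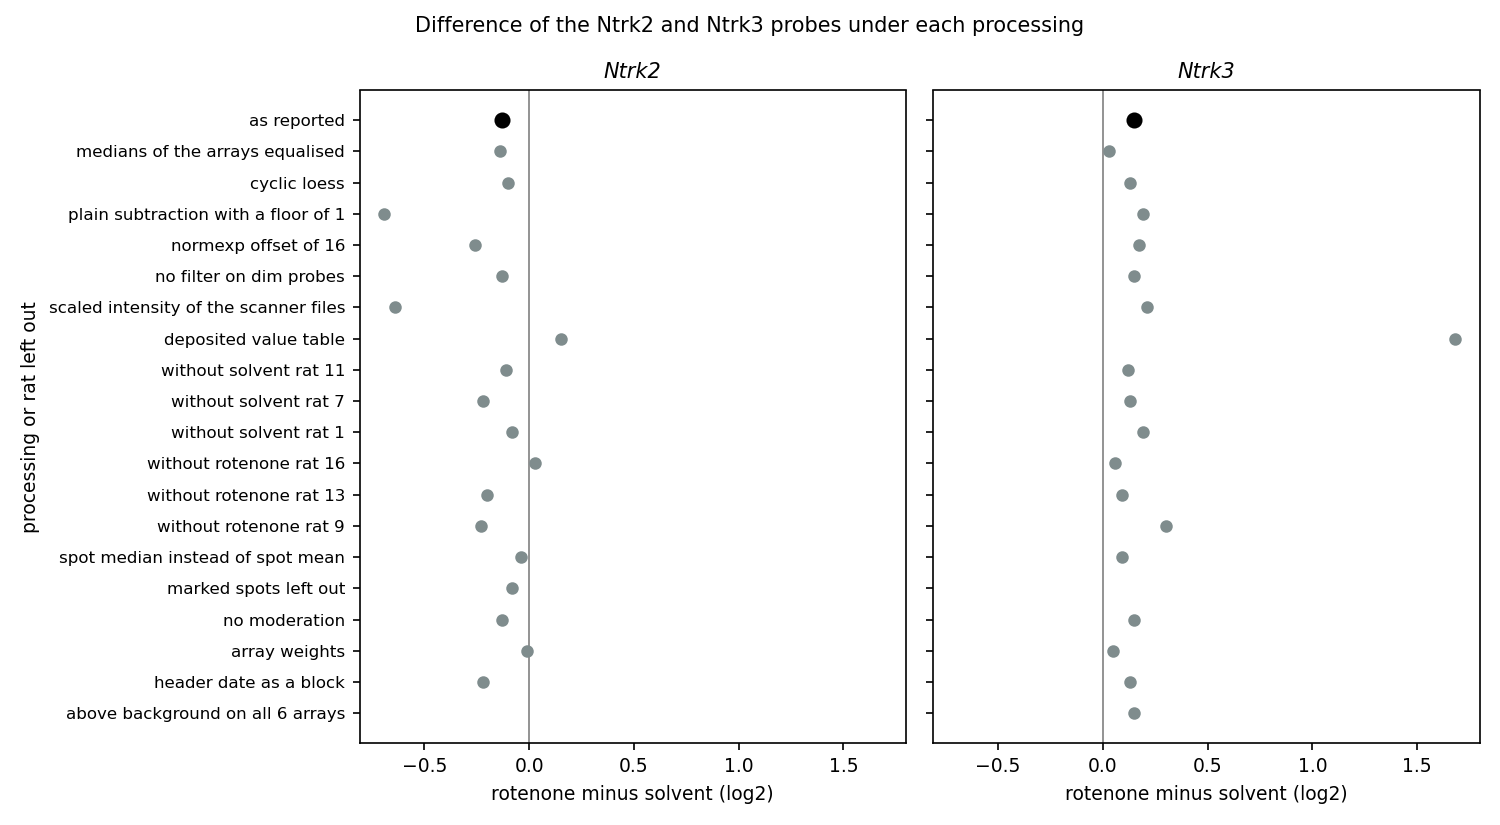
Rotenone minus solvent difference (horizontal axis, log2) of the Ntrk2 probe at the left and the Ntrk3 probe at the right under each processing or with 1 rat left out (vertical axis); the black point is the value as reported and a missing point means that no value could be had. The Ntrk2 points lie on both sides of 0, the Ntrk3 points lie between 0.03 and 0.30 apart from 1.68 with the deposited value table, whose column for solvent rat 7 holds that rat's values in another probe order.

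The Ngfr probe (GE19860) was not well above background on any array, like 34.6% of all probes. The p75 receptor binds all neurotrophins with similar affinity and, together with sortilin, their precursors. Its net signal was 1.08, 12.4 and 10.5 in rotenone rats 16, 13 and 9, against 8.14, 3.64 and 14.5 in solvent rats 11, 7 and 1. Rotenone rat 13 and solvent rat 1 lay above the 95th percentile of the negative control spots of their own arrays, 12.0 and 10.9, and the other 4 rats below theirs. The scanner marked the spot as near background in every rat, and no difference between the groups is given.

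A relative of these genes on the array was as dim. Of the 2 probes of Ntf4, which encodes another TrkB ligand, GE20231 was above background in solvent rat 7 alone, at 17.9, and GE1224248 in no rat. Neither probe could be tested.

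Across the array, none of the 16708 tested probes passed an adjusted p of 0.05 (0%), and 4.94% had an unadjusted p below 0.05. The groups did not overlap at 9.97% of probes. Of the 4 genes with a probe, 2 were tested, 0 passed either threshold, and both had overlapping groups.

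The wider pathway was read from 8 lists with 152 genes, of which 85 were on the array by name and 51 were tested, 1 probe each. None of the 51 passed the adjusted test in limma, and none had an unadjusted p below 0.05, where 5.04% of 2263 named genes had. In the ordinary test of the same linear model 1 had such a p, against 4.44% of all probes. The median difference of the 51 was 0.01, against -0.02 for the named genes and 0.01 for all tested probes. Of their means, 26 were higher and 25 lower in rotenone rats (20 higher and 31 lower with array medians equalised, where the median of all probes moved to -0.06). The single differences ran from -0.50 to 0.44. The offset of 50 draws those of dim genes towards 0. The groups did not overlap for 5 of the 51, named after their values were seen: Ywhae and Ikbkb were higher in each rotenone rat than in any solvent rat (2 of 51, against 5.08% of all probes), and Map2k2, Rps6ka1 and Arc were lower (3 of 51, against 4.89%). Arc was among the 51 only through its 3 solvent arrays, so that its place in this count follows from the filter. Rps6ka1 was above background in all 3 solvent rats but in only 1 rotenone rat, so its place also rests on the solvent arrays.

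**Figure D3:**
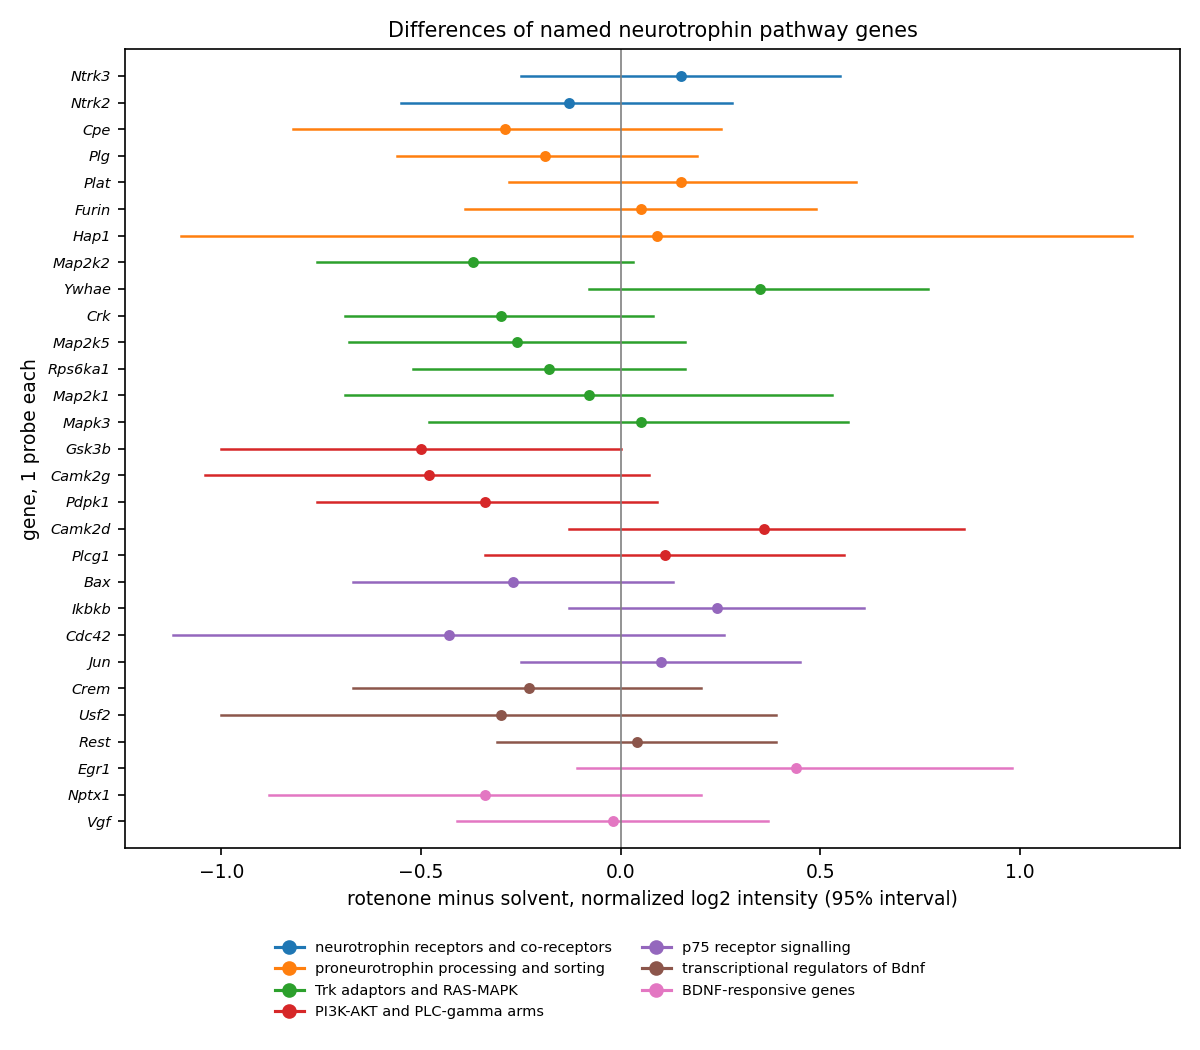
Rotenone minus solvent difference in normalized log2 intensity (horizontal axis) of the tested pathway genes that the text names, Arc left out because no rotenone rat was above background (vertical axis, 1 probe per gene, coloured by list); points are differences and bars are 95% intervals from limma. Every interval drawn reaches or crosses 0 at 2 decimals, and that of Hap1 is the widest drawn, from -1.10 to 1.28.

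Among the genes that process and sort neurotrophin precursors, 8 of 14 were tested, with a median difference of 0.02, 4 means higher and 4 lower. Carboxypeptidase E (Cpe), which sorts BDNF precursor into secretory granules, was at 11.96, 12.91 and 12.68 in rotenone rats 16, 13 and 9, against 13, 12.73 and 12.67 in solvent rats 11, 7 and 1. Only rotenone rat 16 lay apart, and the difference of -0.29 became -0.01 without it (-0.48 to -0.01 with any 1 rat left out). Plg, the precursor of plasmin, which can cleave BDNF precursor outside the cell, differed by -0.19 ± 0.17 (SE), and by -0.25 to -0.09 with a rat left out. The plasminogen activator gene Plat differed by 0.15, and by 0.03 (without rotenone rat 16) to 0.33 with a rat left out. The precursor convertase gene Furin differed by 0.05, and by -0.15 to 0.20 with a rat left out. Hap1, whose product takes part in the transport of BDNF precursor, differed by 0.09 ± 0.53, the least precise value of the list.

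Of the Trk adaptor and RAS-MAPK genes, 12 of 34 were tested, with a median of -0.03, 6 means higher and 6 lower. Map2k2, the MAPK kinase MEK2, was at 8.73, 9.07 and 9.18 in rotenone rats 16, 13 and 9, against 9.44, 9.44 and 9.19 in solvent rats 11, 7 and 1. The highest rotenone rat and the lowest solvent rat were 0.01 apart. The difference was -0.37 ± 0.18 (SE, unadjusted p = 0.0686 and adjusted p = 0.895 in limma). With a rat left out it was -0.46 to -0.23 (without rotenone rat 16). Ywhae, an adaptor of phosphorylated proteins, was at 12.35, 11.83 and 11.77 in rotenone rats 16, 13 and 9, against 11.61, 11.70 and 11.59 in solvent rats 11, 7 and 1. Its difference was 0.35 ± 0.19, and 0.16 (without rotenone rat 16) to 0.46 with a rat left out. The ERK gene Mapk3 differed by 0.05, by -0.03 with the scaled intensity of the scanner files and by -0.20 to 0.24 with a rat left out. The MEK gene Map2k1 differed by -0.08, and by -0.32 to 0.19 (without rotenone rat 16) with a rat left out.

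In the PI3K-AKT and phospholipase C-gamma arms 9 of 30 genes were tested, with a median of -0.24, 4 means higher and 5 lower. Gsk3b, a kinase that AKT inhibits, was at 7.0, 7.28 and 7.74 in rotenone rats 16, 13 and 9, against 7.60, 7.76 and 8.15 in solvent rats 11, 7 and 1. Its groups overlapped, with a difference of -0.50 ± 0.23 (SE, unadjusted p = 0.0517, adjusted p = 0.895 in limma). With a rat left out it was -0.70 (without rotenone rat 9) to -0.33 (without rotenone rat 16). The calcium-dependent kinase gene Camk2g differed by -0.48 ± 0.25, with -0.28 without rotenone rat 16, -0.27 without solvent rat 1 and -0.70 without solvent rat 7. Its relative Camk2d was above background in only 1 solvent rat and 2 rotenone rats. It differed by 0.36 ± 0.22, and by 0.22 to 0.57 (without rotenone rat 16) with a rat left out. With the scaled intensity, which uses no offset, Camk2d differed by 1.82 and Camk2g by -1.20 (adjusted p of Camk2g = 0.879 in limma). Plcg1, the phospholipase that Trk receptors bind, differed by 0.11 at its brighter probe and by -0.02 at the other. At the brighter probe the difference was -0.05 (without rotenone rat 16) to 0.23 with a rat left out, and -0.01 without solvent rat 11.

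Of the p75 signalling genes, 6 of 29 were tested, with a median of 0.02, 4 means higher and 2 lower. Ikbkb, a kinase that activates NF-kappaB, was at 6.58, 6.53 and 6.81 in rotenone rats 16, 13 and 9, against 6.23, 6.50 and 6.47 in solvent rats 11, 7 and 1, a difference of 0.24 ± 0.17 (SE). The cell death gene Bax differed by -0.27 ± 0.18, the GTPase gene Cdc42 by -0.43 ± 0.31 and Jun, a target of the JNK kinases, by 0.10. Bax was above background in only 1 rotenone rat and in all 3 solvent rats. It differed by -1.16 with the scaled intensity, which uses no offset (adjusted p = 0.879 in limma). With a rat left out, Cdc42 differed by -0.70 to -0.11 (without rotenone rat 16) and Jun by 0.04 to 0.16.

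Of 12 genes that regulate Bdnf transcription, 4 were tested, with a median of -0.09. The cAMP response factor gene Crem differed by -0.23 ± 0.19 (SE), and by -0.38 to -0.07 (without solvent rat 11) with a rat left out. Usf2 differed by -0.30, and by -0.59 to 0.11 (without rotenone rat 16) with a rat left out. Rest, a repressor of neuronal genes, differed by 0.04, and by 0 to 0.12 with a rat left out.

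Of 17 genes known to respond to BDNF, 9 were tested, with a median of 0.13, 5 means higher and 4 lower. The early response gene Egr1 was at 7.68, 7.32 and 6.74 in rotenone rats 16, 13 and 9, against 6.80, 6.56 and 7.05 in solvent rats 11, 7 and 1. Its groups overlapped, and the difference of 0.44 ± 0.24 (SE; unadjusted p = 0.103, adjusted p = 0.895 in limma) was 0.22 without rotenone rat 16 and 0.69 without rotenone rat 9. Arc, a synaptic early response gene, was above background in all 3 solvent rats and was not well above it in the rotenone rats. Its values were 6.20, 6.09 and 5.94 in rotenone rats 16, 13 and 9, against 6.36, 6.25 and 6.29 in solvent rats 11, 7 and 1. The probe passed the filter through the solvent rats alone, and no p of it is given. The secreted neuropeptide precursor gene Vgf differed by -0.02, and by -0.14 to 0.10 with a rat left out. The neuronal pentraxin gene Nptx1 differed by -0.34 ± 0.24, and by -0.58 (without solvent rat 7) to -0.22 with a rat left out.

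Since the receptors lie on neurons and glia, the summed intensity of the markers of these cells was set beside them; in bulk RNA, fewer cells of a type and less RNA per cell cannot be told apart. The 6 general neuron markers with a probe summed to 3190 to 5280 in rotenone rats and 5440 to 6460 in solvent rats (normalized linear intensity after the offset was taken off), and 1 of them, Snap25, was above background in no rat. The 10 dopamine neuron markers summed to 20500 to 29300 in rotenone rats and 20900 to 28700 in solvent rats. The 2 ranges did not overlap for the general neuron markers (1 of 11 marker lists, 9.09%) and overlapped for the other 10. Among single probes 9.97% were without overlap, but a list is a sum over its genes, so the 2 shares are of unlike units. The GABA neuron markers summed to 1510 to 2040 in rotenone rats and 1440 to 2070 in solvent rats, and those of other neurons to 742 to 1020 in rotenone rats and 570 to 772 in solvent rats. The 7 oligodendrocyte markers summed to 3970 to 5110 in rotenone rats and 4280 to 6490 in solvent rats. The 9 astrocyte markers summed to 14200 to 16500 in rotenone rats and 13900 to 14900 in solvent rats, with Aqp4 and Slc1a2 above background in no rat. The part of these levels in the values of Ntrk2 and Ntrk3 was not tested.

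The genes whose 6 values were most like those of each receptor gene were named from 1712 genes above background on all arrays. For Ntrk2 they were Srr, the serine racemase gene, and Plaat3, a phospholipase gene, with Pearson correlations of 0.988 and 0.984 over 6 arrays, and 0.957 and 0.947 without rotenone rat 16. For Ntrk3 they were the inositol monophosphatase gene Impa2 (0.992) and the receptor gene Gpr37 (0.979), with 0.989 and 0.967 without that rat. The arrays share their normalization, and 38 and 19 genes reached 0.9 for Ntrk2 and Ntrk3, so the order among them is a description of 6 arrays.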

How the data were processed

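Per the file headers, the deposited scanner files hold linear intensity values of each spot: its mean, its local background median, the net of both, and that net value after the authors divided it by about the array median. No source used here names the scanner software. Background was corrected with normexp (offset 50), 496 control spots were dropped, and the arrays were quantile-normalized on the log2 scale. Every spot was kept whatever its mark. Probes above background on at least 3 of 6 arrays were tested with limma 3.58.1 (R 4.3.3), two-sided, adjusted by Benjamini-Hochberg. The script was tested on simulated data. Probes were named by accession through the RefSeq gene table of rat assembly GRCr8.

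The genes and lists were chosen with earlier results of these data known. Named genes are all probes of the 5 genes, from each list the 2 genes with the lowest p and the 2 brightest, and the 2 genes most like each tested receptor gene; Plat, Furin, Mapk3, Map2k1, Map2k5, Camk2d and Rest were added after their values were seen, and some genes that the rule takes are not reported here. Each rat gave 1 array, and the number of arrays limits the precision. Alternatives were other normalizations, background corrections, filters, spot marks, the deposited value table, no moderation, array weights, the header date as a block, each rat left out and, added after the data were seen, the spot median.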

Additional observations from a re-analysis of the deposited data

How the results depend on the processing

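Ntrk3 kept its direction and stayed short of the threshold under all 18 alternatives that gave a value. The values ran from 0.03 to 0.30, apart from 1.68 with the deposited value table. Leaving out the spots that the scanner marked left it without values. No filter, the filter on all 6 arrays and no moderation cannot change a difference, so these settings bear on the threshold only. Ntrk2 kept its direction in 16 of 18, from -0.69 with plain subtraction and -0.64 with the scaled intensity to -0.01 with array weights. It turned to 0.03 without rotenone rat 16 (range with a rat left out -0.23 to 0.03) and to 0.15 with the deposited value table. In that table the column of solvent rat 7 matched the scanner file at 0.898% of probes and the other 5 columns at 100%. Of its 1576 values above 50, 100% stood somewhere in that rat's own scanner file (to 6 digits) and at most 0.444% in that of another rat, so the column holds that rat's values in another probe order. The value for Ntf3, 1.09-fold with the rotenone rats set at or above that lowest signal, moved to 1.35-fold with plain subtraction and 1.29-fold with the scaled intensity. These 2 use no offset. It was 1.01-fold to 1.19-fold with a rat left out. For Ngfr no value was recomputed, since no rat was above background. The adjusted test called 1 probe with the spot median and 0 to 3 with a rat left out (3 without solvent rat 1), and no pathway gene under any alternative run.

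Pathway genes at an unadjusted p below 0.05 were 0 of 51 as reported, against 4.94% of all probes. With array medians equalised they were 3 of 51 (Map2k2, Gsk3b and Pdpk1), against 5.61%. Plain subtraction and the scaled intensity each gave 3 of 51 (Crk, Rps6ka1 and Arc), against 4.06%. Arc passed the filter through solvent rats alone, and Crk and Rps6ka1 were above background in 1 rotenone rat each. The count was 1 each with an offset of 16, no filter (of 85) and marked spots left out (of 22). It was also 1 each with no moderation, array weights and the spot median, against 4.44% to 5.22% for these settings. It was 2 with the header date as a block, against 3.45%. With a rat left out it was 1 to 5, against 3.37% to 8.19% (5 without rotenone rat 9, against 5.95%). With array medians equalised, 16.2% of all probes at that p were higher in rotenone rats, against 40.2% as reported, and with marked spots left out 60.1%. The header date separates solvent rat 7 from the other 5, so the block gives the values without that rat (Ntrk2 -0.22, Ntrk3 0.13). No paired analysis was possible because rats of the 2 groups share no number. Signal over background limits Ntf3, Ntrk2 and Ngfr, and pathway genes such as Arc, Bax, Camk2d, Crk and Rps6ka1.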

Other observations

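The Hap1 probe (GE1124539) varied more among rats than any other tested pathway probe, in both groups: 10.27, 9.21 and 8.09 in rotenone rats 16, 13 and 9, against 9.66, 9.58 and 8.07 in solvent rats 11, 7 and 1 (normalized log2 intensity). Rotenone rat 9 and solvent rat 1 were low together, and the difference between groups was 0.09, with -0.45 without rotenone rat 16 and 0.64 without rotenone rat 9.

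Map2k5, an upstream kinase of the ERK5 route through which Trk receptors signal, was read by 2 probes. They differed by -0.26 at GE20446 and by -0.32 at GE21966, with unadjusted p values of 0.193 and 0.0801 in limma. The adjusted p was 0.895 at each. The groups overlapped at GE20446 and not at GE21966, as at 9.97% of all probes. Both probes read the same 6 rats.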
